A study of Homo sapiens with 24 samples.

Results

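RB1, RBL1 and RBL2 encode the pocket proteins RB, p107 and p130. LIN9, LIN37, LIN52 and LIN54 encode subunits of the MuvB core, and MYB, MYBL1 and MYBL2 the transcription factors c-MYB, A-MYB and B-MYB. These 10 genes were chosen by symbol from the 58825 genes of the deposited table, each symbol had 1 row, and all 10 passed the expression filter of every main comparison. Pocket proteins bind E2F transcription factors and hold cell cycle genes silent until cyclin-dependent kinases phosphorylate them. When p107 or p130 joins E2F4, a DP protein and the MuvB core, the assembly is the DREAM repressor. In cycling cells the same core leaves the pocket protein and binds B-MYB, and later FOXM1, to activate genes of G2 and mitosis. The protein p53 is known to favour DREAM through the kinase inhibitor p21, the product of CDKN1A.

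SK-HEP-1 cells were used, a human cell line derived from a liver cancer and classed as endothelial in the labels. All lines carried a CRISPR interference (CRISPRi) system, in which a guide RNA brings a repressor to a chosen promoter. The 4 tested lines (sg2, sg4, sg5 and sg6) each carried 1 guide against PURPL, a p53-induced long noncoding RNA, and the 2 control lines (NTC1 and NTC2) each carried 1 non-targeting guide. Every line received 10 µM Nutlin-3a, which frees p53 from MDM2, or the vehicle DMSO for 6 h, with 2 harvests of each of the 12 combinations, numbered 1 and 3 and described as biological replicates in the labels. Whether a line is 1 clone or a pool is not given in the sources used here, so a guide and its line cannot be told apart. In these bulk samples, fewer cells of a type or cell cycle phase and less RNA per cell cannot be told apart either.

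Stranded mRNA libraries gave 66.4 M to 92.1 M estimated counts each. Levels are given as CPM, counts relative to library size after TMM scaling. PURPL lay between 0.273 and 2.90 CPM in the 16 libraries of its guide lines, against 7.40 to 38.5 CPM in the 8 libraries of the NTC lines. CDKN1A lay between 934 and 2970 CPM in the 12 Nutlin-3a libraries, against 71.7 to 110 CPM in the 12 DMSO libraries. Of 10 endothelial markers 3 passed the filter; PECAM1 reached at most 0.0277 CPM, CDH5 at most 0.0591 CPM, and ERG was at 0. Of 10 markers of blood cells and progenitors, where MYB is best known, 3 passed (CD34, GATA2 and KIT), PTPRC reached at most 0.13 CPM and SPI1 and GATA1 were at 0. Of 10 hepatocyte, 5 epithelial and 6 mesenchymal markers, 1, 4 and 6 passed. Both of the last lists were mixed. Mesenchymal VIM lay between 3570 and 4870 CPM, while COL1A2 reached at most 0.26 and COL3A1 at most 1.31 CPM. Epithelial KRT8 lay between 442 and 5190 CPM and KRT18 between 914 and 3700 CPM, while CDH1 reached at most 0.0596 CPM. One library stood apart, the first harvest of sg2 with Nutlin-3a, called the divergent library here. Its median correlation with libraries of its treatment was 0.908, against 0.992 to 0.998 in the others. The slope of its log2 levels on GC content was 1.21 per 10 percentage points, while the remaining 23 libraries had slopes from -0.153 to 0.257. LIN37 and MYBL2 have transcripts of 59.1% and 60.5% GC, against 37.3% to 43.9% in the other 8 genes, and the Nutlin-3a responses of the 10 genes and the counts of the lists are therefore given with and without the divergent library.

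Promoter sequence is shown for 5 genes that fell with Nutlin-3a, MYBL2 only without the divergent library, as examples of elements of the kind that E2F or MuvB is known to bind. RefSeq windows on GRCh38.p14, from 250 bases before to 50 after a start, matched 9 of the 10 genes with 14 windows, and MYBL1 was not used. Both strands were searched for the E2F elements TTTGGCGC, TTTCCCGC, TTTGCCGC and TTTCGCGC, for the CHR (cell cycle genes homology region) elements TTTGAA and TTTAAA, which LIN54 is known to contact, and for CCAAT. TTGGCGGGA was added after the windows had been seen. Capitals mark the matches, and each stretch is printed 5′ to 3′ on the strand of its gene.
RBL1, chr20:37095998-37096057, minus strand: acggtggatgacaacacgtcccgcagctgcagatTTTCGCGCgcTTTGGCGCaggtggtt
LIN52, chr14:74084920-74084949, plus strand: tggaacctcgtTTTCCCGCcgacggttggc
LIN54, chr4:83010906-83010935, minus strand: ggcccttgtgcgTTTGAAggttggcggggc
MYB, chr6:135181218-135181277, plus strand: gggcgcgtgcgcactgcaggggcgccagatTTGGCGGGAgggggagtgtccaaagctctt
MYBL2, chr20:43667062-43667091, plus strand: cgccgacgcgcTTGGCGGGAgatagaaaag

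Distances here are counted from RefSeq starts, which can differ from the gene bounds of the GENCODE 29 annotation. By those bounds the printed stretches of LIN52, LIN54 and MYBL2 lie inside the gene, and those of RBL1 and MYB before it. RBL1 holds a pair of E2F elements, 26 and 16 bases before its RefSeq start, and LIN52 has 1 element 25 bases before its RefSeq start. An E2F element of the searched set occurred in 3.31% of all 35116 windows. Where a gene has several starts, they are numbered in the order in which the windows are listed. In LIN54, TTTGAA lies 100 bases before the first start and 89 bases before the second, and 15.2% of all windows hold TTTGAA. The windows of MYB and MYBL2 held none of the elements that were fixed beforehand. Both hold the 9-base element TTGGCGGGA, 60 and 41 bases before their starts, and 0.31% of all windows hold it. As this element was added after these windows had been seen, its presence in both is no test of a shared element. Of the remaining genes, LIN9 holds TTTGAA 3 bases before the third of its starts and LIN37, which did not fall, holds TTTGAA 182 bases before its second start and CCAAT 87 bases before its first. RBL2, which did not fall either, holds TTTAAA 187 and 127 bases before and TTTGAA 25 bases after its first start, and TTTAAA 32 bases after and CCAAT 30 bases before its second. CCAAT also lies 246 bases before the start of LIN52, and the window of RB1 held none of these letters. TTTAAA occurs in 12.2% and CCAAT in 34.6% of all windows. A match describes the letters of a window and shows no binding.

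In the 4 DMSO libraries of the NTC lines, levels per kilobase of annotated exon were highest for RB1, at 32.5 ± 7.55 CPM per kb (SD, n = 4). MYBL1 followed with 19.3 ± 3.56, MYBL2 with 13.8 ± 4.09, LIN9 with 12.5 ± 2.04, RBL2 with 12.0 ± 1.89 and RBL1 with 9.77 ± 2.01 CPM per kb. LIN54 stood at 6.80 ± 1.36 and LIN52 at 4.92 ± 0.411 CPM per kb. LIN37 was far below the other MuvB subunits at 0.653 ± 0.214 CPM per kb, and MYB was lowest at 0.341 ± 0.0305 CPM per kb. The ranges of neighbours in this order overlapped from MYBL1 down to LIN52, whereas RB1, LIN37 and MYB each lay apart from their neighbours. Within each of the 4 libraries RBL2 was above RBL1, RBL1 above LIN54 and LIN54 above LIN52. Neighbours among MYBL1, MYBL2, LIN9 and RBL2 changed places between libraries, so their order is not resolved. Reads of RBL2 are less certain because its exons overlap AKTIP on the opposite strand, and LIN37 shares exon sequence with AD000671.1 on the same strand, which averaged 5.25 counts per library.

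MYB, the c-MYB factor best known from blood progenitors, had the largest response to Nutlin-3a among the 10 genes. The gene lies on hg38 chromosome 6 from 135181315 to 135219173 on the plus strand (GENCODE 29). Its level in the PURPL guide lines lay between 0.283 and 0.563 CPM with Nutlin-3a, median 0.349, against 1.68 to 2.91 CPM in DMSO, median 2.30. In NTC libraries it was 0.429 and 0.569 CPM in NTC1 and 0.303 and 0.462 CPM in NTC2 with Nutlin-3a, against 1.82 and 1.65 CPM in NTC1 and 2.00 and 2.01 CPM in NTC2 with DMSO. No Nutlin-3a library reached the lowest DMSO library, and the 20 to 43 counts per Nutlin-3a library, against 118 to 234 per DMSO library, show how few reads carry the lower level. The divergent library, at 0.309 CPM, was inside the range of the other Nutlin-3a libraries. MYB fell 6.30-fold in the PURPL guide lines (log2 fold change -2.66, SE 0.13, edgeR adjusted p = 2.19e-09) and 4.25-fold in the NTC lines (-2.09, SE 0.19, edgeR adjusted p = 2.85e-06). The fall of MYB without the divergent library was 6.29-fold in the PURPL guide lines (-2.65, SE 0.14, edgeR adjusted p = 2.52e-10), and its log2 fold change in the NTC lines was -2.12 (SE 0.18, edgeR adjusted p = 1.73e-07). It was called in all 57 fits of each comparison, with log2 fold changes of -2.75 to -2.56 in the PURPL guide lines and -2.30 to -1.98 in the NTC lines.

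**Figure D1:**
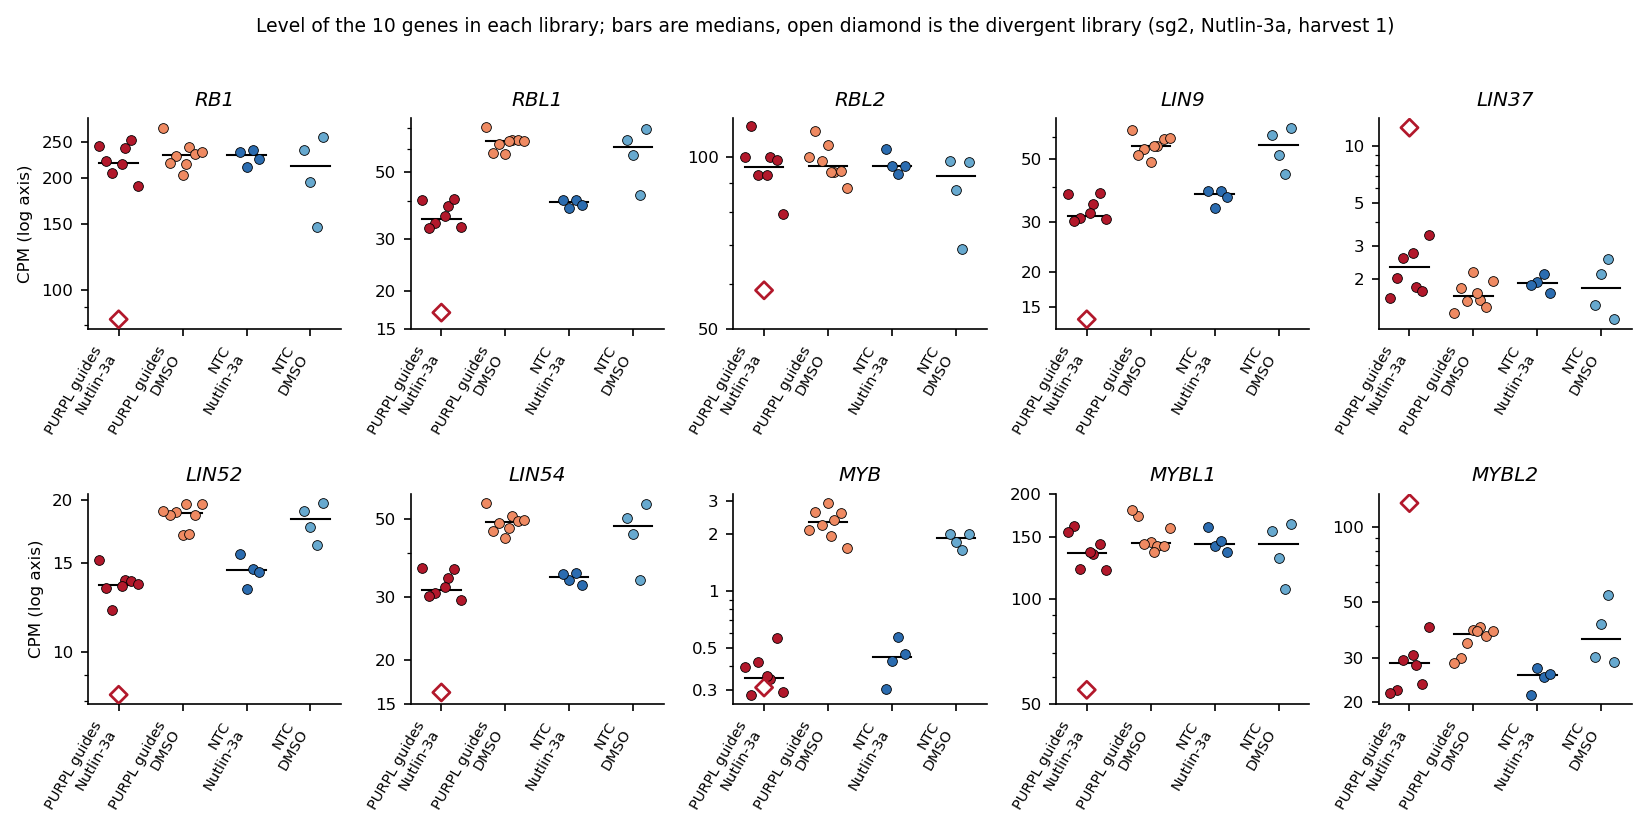
Level of each gene in every library, in CPM on log axes that differ between panels, by guide and treatment. Bars are group medians and the open diamond is the divergent library. MYB, RBL1, LIN9 and LIN52 have every Nutlin-3a library below every DMSO library, while RB1, RBL2, LIN37, LIN54, MYBL1 and MYBL2 overlap.

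The other 2 MYB family genes were not called with all libraries. MYBL1, coding for A-MYB and abundant in these cells, lay between 55.0 and 162 CPM in the PURPL guide lines with Nutlin-3a, against 136 to 180 CPM with DMSO. Its log2 fold change was -0.26 in the PURPL guide lines (SE 0.14, edgeR adjusted p = 0.152) and 0.08 in the NTC lines (SE 0.20, edgeR adjusted p = 0.911), and neither passed. Leaving out the divergent library gave -0.15 and 0.05 (edgeR adjusted p = 0.121 and 0.77). MYBL2, the B-MYB of the activating MuvB complex, lay in the NTC lines at 27.2 and 25.1 CPM in NTC1 and 21.3 and 25.8 CPM in NTC2 with Nutlin-3a. With DMSO it was 40.9 and 53.3 CPM in NTC1 and 30.2 and 28.8 CPM in NTC2, so the groups did not overlap in the NTC lines. In the PURPL guide lines it lay between 21.6 and 124 CPM with Nutlin-3a, median 28.6, against 28.5 to 39.7 CPM with DMSO, median 37.4, and the 124 CPM belonged to the divergent library. With all libraries MYBL2 was not called in the PURPL guide lines (log2 fold change 0.01, SE 0.23, edgeR adjusted p = 0.984) or in the NTC lines (-0.59, SE 0.32, edgeR adjusted p = 0.36). Without the divergent library it fell by 0.37 in the PURPL guide lines (SE 0.13, edgeR adjusted p = 0.0306) and by 0.62 in the NTC lines (SE 0.17, edgeR adjusted p = 0.0115) on the log2 scale. The share of MYB in the summed level per kilobase of the 3 genes was 0.107% to 0.36% with Nutlin-3a, against 0.848% to 1.53% with DMSO, and the 0.107% belonged to the divergent library, where MYBL2 made up 85.4% of the sum.

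RBL1 was the 1 pocket protein gene called, and its ratio to RBL2 was lower in every Nutlin-3a library than in every DMSO library. RBL1, coding for p107, which is known to accumulate in cycling cells, lay between 17.0 and 40.8 CPM in the PURPL guide lines with Nutlin-3a, median 34.8, against 57.5 to 70.6 CPM with DMSO, median 63.7. RBL1 in the NTC lines was 37.9 and 40.4 CPM in NTC1 and 40.3 and 39.0 CPM in NTC2 with Nutlin-3a, against 57.0 and 42.0 CPM in NTC1 and 64.1 and 69.6 CPM in NTC2 with DMSO. RBL1 lies on hg38 chromosome 20 from 36996349 to 37095995 on the minus strand. All Nutlin-3a libraries were below all DMSO libraries, with harvest 3 of NTC1 in DMSO the nearest. RBL1 fell by 0.90 on the log2 scale in the PURPL guide lines (SE 0.13, edgeR adjusted p = 9.45e-05), and by 0.79 without the divergent library (SE 0.06, edgeR adjusted p = 3.51e-08). Its log2 fold change of -0.55 in the NTC lines did not pass with all libraries (SE 0.18, edgeR adjusted p = 0.082) and passed without the divergent library, at -0.58 (SE 0.08, edgeR adjusted p = 6.26e-05).

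RB1, the retinoblastoma gene, lay between 83.1 and 254 CPM in the PURPL guide lines with Nutlin-3a, against 204 to 274 CPM with DMSO, and between 214 and 239 CPM in the NTC lines with Nutlin-3a, against 148 to 258 CPM with DMSO. Its log2 fold change was -0.17 in the PURPL guide lines (95% interval -0.51 to 0.16) and 0.15 in the NTC lines (-0.33 to 0.63). RBL2, coding for p130, the pocket protein known from quiescent cells, lay between 58.4 and 113 CPM with Nutlin-3a and between 68.9 and 111 CPM with DMSO over all lines. Its log2 fold change was -0.10 in the PURPL guide lines (-0.32 to 0.13) and 0.15 in the NTC lines (-0.17 to 0.47), and without the divergent library the intervals of both genes lay between -0.20 and 0.32. The RBL1 to RBL2 ratio of levels per kilobase was 0.452 ± 0.0632 in the PURPL guide lines with Nutlin-3a and 0.794 ± 0.0899 with DMSO (SD, n = 8 each). The NTC lines had 0.499 ± 0.0238 with Nutlin-3a and 0.806 ± 0.0509 with DMSO (SD, n = 4 each). The highest ratio with Nutlin-3a was 0.533, below the lowest with DMSO, 0.644. RBL1 made up 9.85% to 12.1% of the summed level of the 3 pocket genes with Nutlin-3a, against 16.5% to 18.6% with DMSO, and the divergent library lay inside the Nutlin-3a range here.

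**Figure D2:**
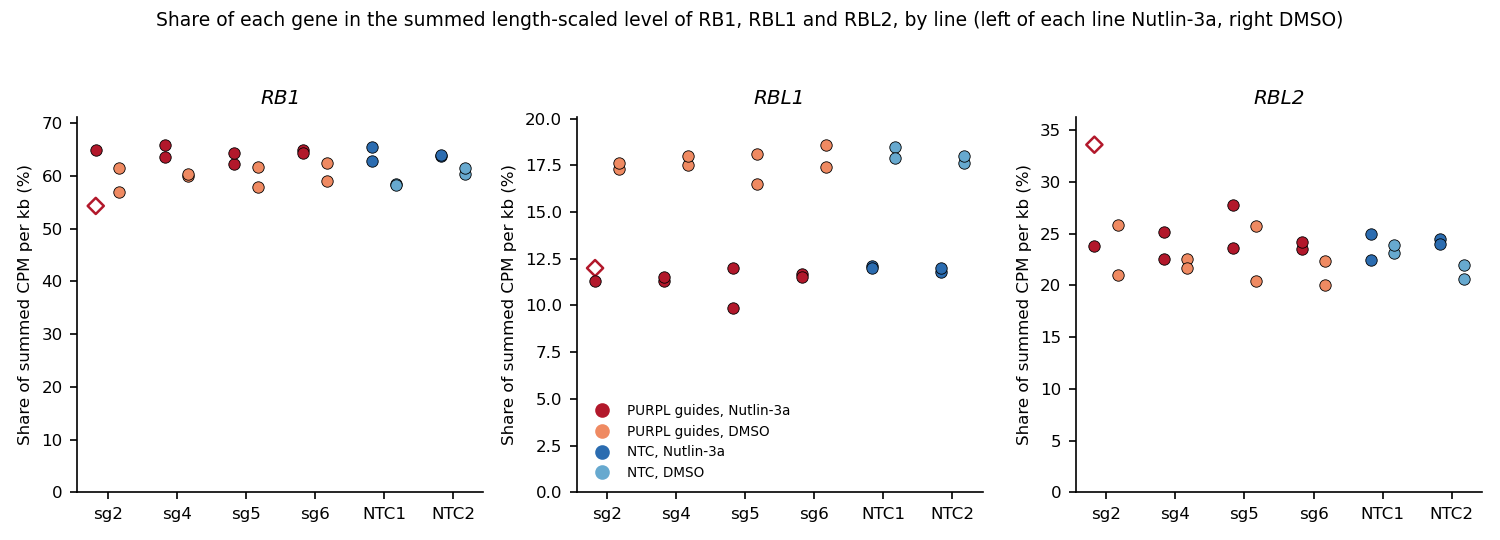
Share of RB1, RBL1 and RBL2 in their summed CPM per kb, in percent, for each harvest of each line, with Nutlin-3a left and DMSO right within a line. The open diamond is the divergent library. RBL1 holds 9.85% to 12.1% in every Nutlin-3a library, against 16.5% to 18.6% in every DMSO library.

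Of the 4 MuvB subunits, LIN9, LIN52 and LIN54 fell with Nutlin-3a in the PURPL guide lines and LIN37 did not. On hg38 LIN9 lies on chromosome 1 from 226231149 to 226309869 and LIN54 on chromosome 4 from 82909973 to 83012926, both on the minus strand. LIN52 lies on chromosome 14 from 74084796 to 74201235 and LIN37 on chromosome 19 from 35748361 to 35754519, both on the plus strand. LIN9, a scaffold subunit of the core, lay between 13.6 and 37.8 CPM in the PURPL guide lines with Nutlin-3a, median 31.6, against 48.7 to 63.3 CPM with DMSO, median 55.5. LIN9 in the NTC lines was 33.7 and 38.6 CPM in NTC1 and 38.5 and 36.6 CPM in NTC2 with Nutlin-3a, against 51.7 and 44.3 CPM in NTC1 and 60.7 and 64.5 CPM in NTC2 with DMSO. The treatments did not overlap. LIN9 fell by 0.86 on the log2 scale in the PURPL guide lines (SE 0.14, edgeR adjusted p = 0.000277) and by 0.75 without the divergent library (SE 0.06, edgeR adjusted p = 3.79e-08). In the NTC lines its log2 fold change was -0.57 with all libraries (SE 0.20, edgeR adjusted p = 0.0946) and -0.61 without the divergent library (SE 0.08, edgeR adjusted p = 2.22e-05).

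LIN52, the subunit whose phosphorylation by DYRK1A is known to bring the core to p107 or p130, had a smaller difference. It lay between 8.22 and 15.2 CPM in the PURPL guide lines with Nutlin-3a, median 13.5, against 17.0 to 19.6 CPM with DMSO, median 18.8. The NTC lines had 13.3 and 14.6 CPM in NTC1 and 15.6 and 14.4 CPM in NTC2 with Nutlin-3a, against 17.7 and 16.3 CPM in NTC1 and 19.0 and 19.7 CPM in NTC2 with DMSO. The treatments did not overlap, and the highest Nutlin-3a library at 15.6 CPM came close to the lowest DMSO library at 16.3 CPM. The fall in the PURPL guide lines was 0.52 on the log2 scale (SE 0.09, edgeR adjusted p = 0.000391) and 0.46 without the divergent library (SE 0.05, edgeR adjusted p = 7.16e-07). In the NTC lines the log2 fold change was -0.33 (SE 0.12, edgeR adjusted p = 0.142), or -0.36 without the divergent library (SE 0.06, edgeR adjusted p = 0.000359).

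LIN54, the subunit that is known to bind CHR elements, lay between 16.2 and 36.2 CPM in the PURPL guide lines with Nutlin-3a, median 31.5, against 44.2 to 55.3 CPM with DMSO, median 48.9. LIN54 in the NTC lines was 33.6 and 35.1 CPM in NTC1 and 35.0 and 32.6 CPM in NTC2 with Nutlin-3a, against 45.2 and 33.6 CPM in NTC1 and 50.2 and 55.0 CPM in NTC2 with DMSO. The treatments overlapped only through harvest 3 of NTC1 in DMSO. LIN54 fell by 0.68 on the log2 scale in the PURPL guide lines (SE 0.12, edgeR adjusted p = 0.000573) and by 0.59 without the divergent library (SE 0.06, edgeR adjusted p = 1.66e-06). In the NTC lines its log2 fold change was -0.42 (SE 0.17, edgeR adjusted p = 0.17), or -0.45 without the divergent library (SE 0.09, edgeR adjusted p = 0.000842).

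LIN37, a subunit known to be needed for repression by DREAM, had few reads, 89 to 247 counts per library apart from 1094 in the divergent one. It lay between 1.59 and 12.5 CPM in the PURPL guide lines with Nutlin-3a, median 2.30, against 1.33 to 2.17 CPM with DMSO, median 1.62, and the 12.5 CPM belonged to the divergent library. LIN37 in the NTC lines was 1.94 and 2.14 CPM in NTC1 and 1.86 and 1.70 CPM in NTC2 with Nutlin-3a, against 2.14 and 2.54 CPM in NTC1 and 1.46 and 1.23 CPM in NTC2 with DMSO. LIN37 passed as higher in the PURPL guide lines (log2 fold change 0.89, SE 0.29, edgeR adjusted p = 0.029), and without the divergent library it did not (0.38, SE 0.15, edgeR adjusted p = 0.0602). When each library's GC trend was removed as well, LIN37 was again called higher. It lost its call in 18 of 23 fits that left out a further library beside the divergent one. Among all fits of that comparison it was called in 25 of 57.

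Counted together, 5 of the 10 genes fell and 1 rose with Nutlin-3a in the PURPL guide lines, where 16.5% of all 16371 genes tested were called lower and 17.7% higher. Without the divergent library 6 fell and 0 rose, against 22.7% and 15.9% of genes. In the NTC lines 1 of the 10, MYB, fell with all libraries, where 4.03% of genes were called lower and 4.18% higher. Without the divergent library 6 fell, RBL1, LIN9, LIN52, LIN54, MYB and MYBL2, and 0 rose, against 15.9% and 8.88% of genes. The median log2 fold change of the 10 genes was -0.39 in the PURPL guide lines, where that of all genes was 0.05, and -0.37 in the NTC lines, where it was -0.02. All 12 Nutlin-3a libraries were below all 12 DMSO libraries for RBL1, LIN9, LIN52 and MYB, a pattern that 5.65% of all genes had, and the reverse held for 0 of the 10 and 3.14% of all genes. The same 4 were apart without the divergent library, against 6.92% of genes, with 0 of the 10 and 4.49% of genes the reverse. Within the NTC lines the 4 libraries of each treatment lay apart for RBL1, LIN9, LIN52, MYB and MYBL2, all lower, against 12.6% of genes lower and 11.1% higher. Within the PURPL guide lines the 8 libraries of each treatment lay apart for RBL1, LIN9, LIN52, LIN54 and MYB, all lower, against 10.8% lower and 5.03% higher. The p-values rest on how far the 2 harvests of each line spread.

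**Figure D3:**
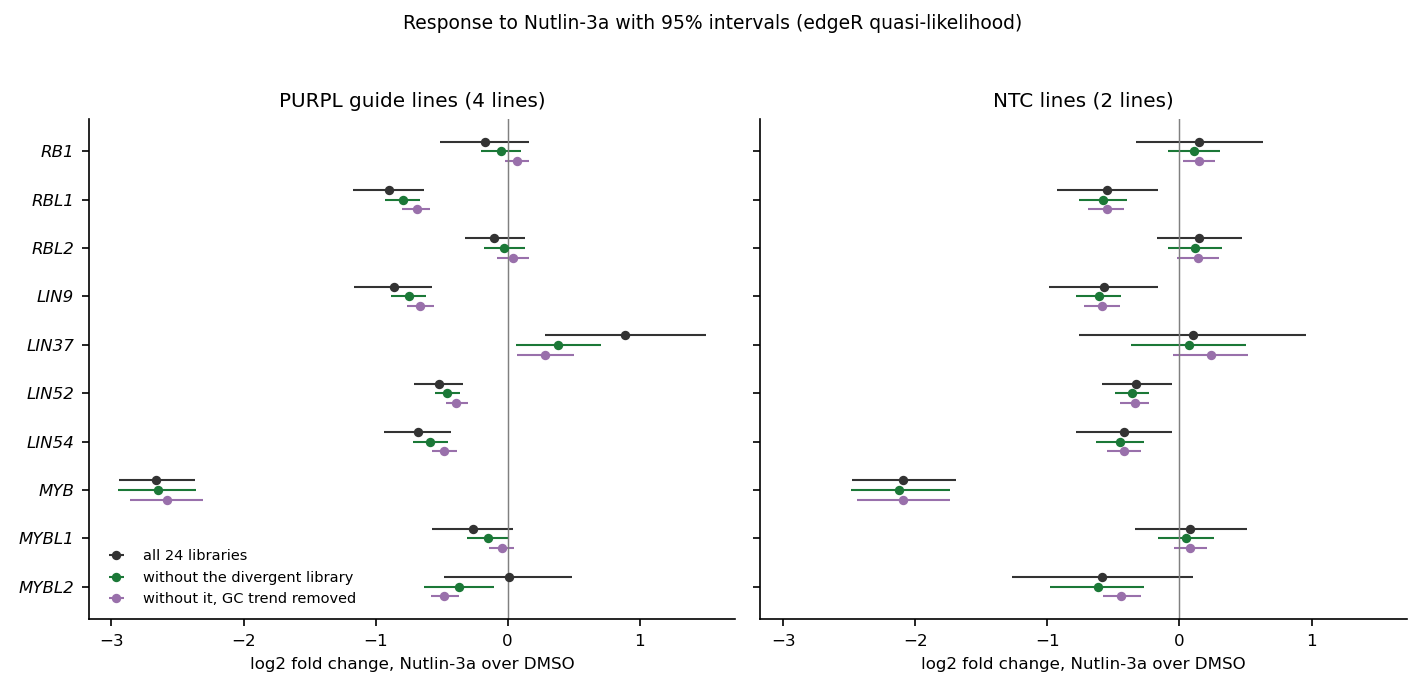
Log2 fold change of Nutlin-3a over DMSO in the PURPL guide lines (left) and the NTC lines (right), with 95% intervals, for all 24 libraries, without the divergent library, and without it after removal of each library's GC trend. MYB lies furthest from 0 in both panels, and the intervals of RBL1, LIN9, LIN52 and LIN54 lie below 0 in all 6 fits shown.

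The direction was the same in every line for 5 genes, although edgeR called few of them line by line. With all libraries MYB alone fell in each of sg4, sg5, sg6, NTC1 and NTC2, and in sg2 RBL1, LIN9, LIN52 and LIN54 fell with it and LIN37 rose. These are 10 pairs of gene and line called lower and 1 called higher of 60, where 2.96% of all such pairs were called lower and 4.77% higher. Without the divergent library 29 of the 60 pairs were called lower and 0 higher, against 9.54% and 5.24% of all pairs. On the scale of mean log2(CPM + 0.5), which understates the change of low genes, the Nutlin-3a minus DMSO difference of MYB was -1.92 in sg2, -1.55 in sg4, -1.73 in sg5, -1.53 in sg6, -1.17 in NTC1 and -1.51 in NTC2. RBL1, LIN9, LIN52 and LIN54 were also lower in 6 of 6 lines, as were 17.5% of all genes, while 0 of the 10 and 14.8% of all genes were higher in 6 of 6. An exact two-sided sign-flip test over the 6 lines gave an unadjusted p = 0.0312 for each of the 5 genes. This is the smallest p that 64 sign patterns can give, and it was not adjusted over the 10 genes. A Benjamini-Hochberg adjustment over the genes measured had been planned, so no gene is called from this test. NTC1 had the smallest difference for all 5, for example -0.32 for RBL1 and -0.18 for LIN54, and its DMSO harvest numbered 3 had lower levels of RB1, RBL1, RBL2, LIN9, LIN52, LIN54, MYB and MYBL1 than any other DMSO library. That harvest also had a GC slope of 0.233, near the 0.257 that was the highest outside the divergent library, and the part of this in the result was not tested. MYBL2 was lower in 5 of 6 lines, and in 6 of 6 without the divergent library (sign-flip test, unadjusted exact p = 0.0312). Without that library 21.2% of all genes were lower and 18.5% higher in all lines.

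**Figure D4:**
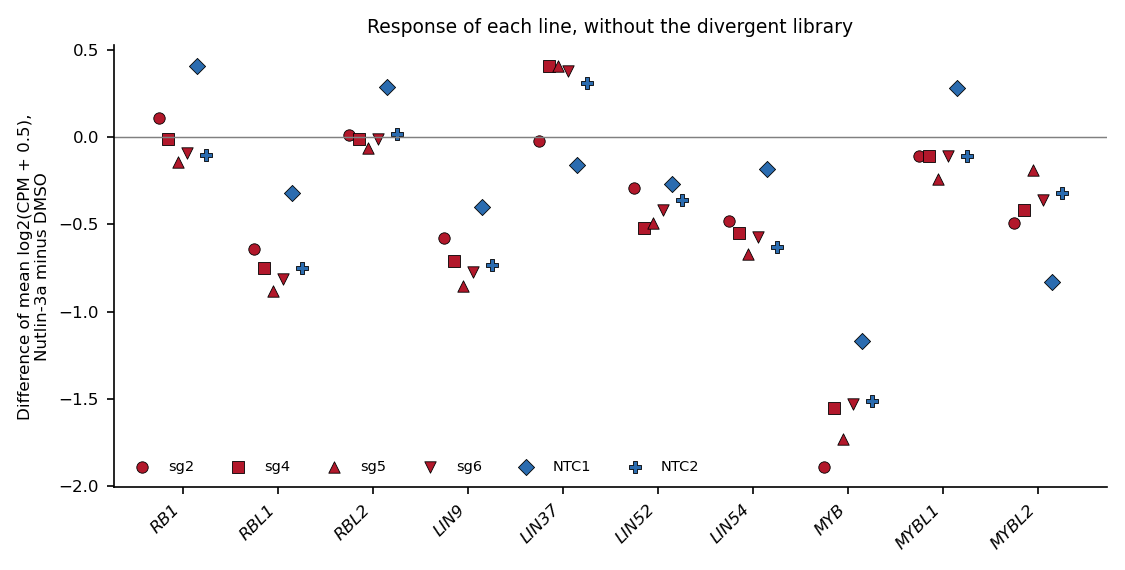
Difference of mean log2(CPM + 0.5), Nutlin-3a minus DMSO, in each line without the divergent library, with PURPL guide lines in red and NTC lines in blue. RBL1, LIN9, LIN52, LIN54, MYB and MYBL2 lie below 0 in all 6 lines, and RB1, RBL2, LIN37 and MYBL1 have lines on both sides of 0.

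The guides were then compared, to ask whether lower PURPL went with other levels of these genes. PURPL guide lines did not differ from NTC lines past the threshold for any of the 10 genes, with either treatment. In DMSO the log2 differences ran from -0.14 (LIN37) to 0.30 (MYB), and MYB had the widest gap, at 2.31 ± 0.395 CPM in the PURPL guide lines (SD, n = 8) and 1.87 ± 0.168 CPM in the NTC lines (SD, n = 4), with a log2 difference of 0.30 (95% interval -0.04 to 0.65, edgeR adjusted p = 0.825). Over all genes 0 were called higher and 1, or 0.00601%, lower in that comparison, and 528 had an unadjusted p under 0.05, none of them among the 10. DESeq2 called 8 genes higher and 3 lower there, and 0 of the 10. Leaving out NTC2, so that NTC1 alone was the control, called 6 of the 10 higher and 2 lower, for example RB1 at 0.45 and MYBL2 at -0.43, in a fit that called 3075 genes higher and 3249 lower over the whole table. With NTC1 left out, so that NTC2 alone was the control, 0 of the 10 were called, RB1 was at -0.10 and MYBL2 at 0.27.

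With Nutlin-3a the log2 differences between guide and NTC lines ran from -0.27 (MYB, 95% interval -0.92 to 0.39) to 0.95 (LIN37, -0.59 to 2.49), and for MYBL2 it was 0.72 (-0.62 to 2.05). Without the divergent library they were -0.24 for MYB (-0.78 to 0.31), 0.23 for LIN37 (-0.15 to 0.61) and 0.16 for MYBL2 (-0.02 to 0.34), and edgeR called 1 gene lower, or 0.00596%, and 0 higher. Over all genes edgeR called 0 in this comparison with all libraries, 286 had an unadjusted p under 0.05 with none of the 10 among them, and DESeq2 called 2 higher and 2 lower. The difference of responses, PURPL guide lines minus NTC lines, was -0.61 for MYB (95% interval -1.39 to 0.16, edgeR adjusted p = 0.533) and -0.40 for RBL1 (-0.86 to 0.05, edgeR adjusted p = 0.533). It was, without the divergent library, -0.54 for MYB (-1.13 to 0.05) and -0.25 for RBL1 (-0.53 to 0.03), both with an edgeR adjusted p = 0.613. Of all genes, edgeR called 0 in that comparison, 621 had an unadjusted p under 0.05 with none of the 10 among them, and DESeq2 called 2 higher. The MYB responses of guide and NTC lines were thus not shown to differ, and the interval allows a difference down to -1.39.

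Partners of these genes were described from lists. Over all genes, 16.5% were called lower and 17.7% higher in the PURPL guide lines, and 4.03% lower and 4.18% higher in the NTC lines. The shares without the divergent library were 22.7% lower and 15.9% higher in the PURPL guide lines, and 15.9% lower and 8.88% higher in the NTC lines. Of 10 E2F and DP genes, 7 fell and 1 rose in the PURPL guide lines with and without the divergent library. The NTC lines had 5 lower and 1 higher, or 8 and 1 without that library. E2F2, an activating E2F, fell by 2.70 in the PURPL guide lines (SE 0.14, edgeR adjusted p = 4.34e-09) and by 2.71 in the NTC lines on the log2 scale (SE 0.20, edgeR adjusted p = 6.42e-07). E2F7 rose, with log2 fold changes of 0.70 in the PURPL guide lines and 0.89 in the NTC lines (edgeR adjusted p = 0.000282 and 0.0022). E2F8 fell, at -1.2 in the PURPL guide lines and -1.08 in the NTC lines (edgeR adjusted p = 6.08e-09 and 2.2e-06). So did E2F5, at -0.79 and -0.64 (edgeR adjusted p = 5.12e-05 and 0.0124). E2F4, an E2F of the DREAM complex, was at 0.25 and -0.34 and did not pass in either (edgeR adjusted p = 0.344 and 0.632). When the divergent library was left out, E2F4 was at -0.10 in the PURPL guide lines (edgeR adjusted p = 0.42) and passed as lower in the NTC lines (-0.37, edgeR adjusted p = 0.0416).

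Of 14 tested genes for kinases, cyclins and inhibitors that act on these complexes, 7 fell and 2 rose in the PURPL guide lines, where 16.5% and 17.7% of all genes did, and 6 fell and 2 rose in the NTC lines, where 4.03% and 4.18% did. Leaving out the divergent library gave 9 lower and 2 higher in the PURPL guide lines and 10 lower and 2 higher in the NTC lines. The 2 that rose in the NTC lines were CDKN1A, with log2 fold changes of 4.07 in the PURPL guide lines and 3.59 in the NTC lines, and the D-type cyclin CCND2, with 2.02 and 2.04. The E-type cyclin genes fell, with log2 fold changes of -1.89 and -1.71 for CCNE1 and -2.63 and -2.24 for CCNE2 in the PURPL guide and NTC lines. DYRK1A, the kinase of LIN52, fell by 0.38 in the PURPL guide lines (SE 0.09, edgeR adjusted p = 0.00642), and in the NTC lines it was at -0.16 and did not pass (edgeR adjusted p = 0.595). When the divergent library was left out DYRK1A fell in both, by 0.30 in the PURPL guide lines (edgeR adjusted p = 3.97e-05) and by 0.20 in the NTC lines (edgeR adjusted p = 0.0211).

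RBBP4, the histone-binding subunit of the MuvB core, stood in the list of 12 chromatin partners, of which 6 fell and 1 rose in the PURPL guide lines, and 2 fell and 0 rose in the NTC lines, beside 16.5% and 17.7% of all genes in the PURPL guide lines and 4.03% and 4.18% in the NTC lines. Leaving out the divergent library gave 7 lower and 2 higher in the PURPL guide lines and 7 lower and 1 higher in the NTC lines. RBBP4 fell by 0.47 in the PURPL guide lines (SE 0.11, edgeR adjusted p = 0.00619), or by 0.37 without the divergent library (edgeR adjusted p = 1.53e-06), and in the NTC lines it was at -0.22 (SE 0.16, edgeR adjusted p = 0.534), or at -0.26 and called without the divergent library (edgeR adjusted p = 0.00178). Of 12 cofactors and regulators of MYB proteins, 0 fell and 2 rose in the PURPL guide lines, where 17.7% of all genes rose, and 0 fell and 1 rose in the NTC lines, where 4.18% rose. Those without the divergent library were 1 lower and 1 higher in the PURPL guide lines and 0 lower and 1 higher in the NTC lines. The riser in the NTC lines was FBXW7, a ubiquitin ligase subunit, with log2 fold changes of 0.42 in the PURPL guide lines and 0.63 in the NTC lines. MYBBP1A, a protein that binds MYB, was at 0.39 in the PURPL guide lines and -0.45 in the NTC lines and did not pass in either (edgeR adjusted p = 0.286 and 0.647). Its values without the divergent library were -0.14 and -0.48, which did not pass either (edgeR adjusted p = 0.458 and 0.0613).

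Genes known as targets of the complexes formed 2 lists. Of 25 G1/S genes, 17 fell and 1 rose in the PURPL guide lines, where 16.5% and 17.7% of all genes did, and 13 fell and 1 rose in the NTC lines, where 4.03% and 4.18% did. ORC1, a subunit of the origin recognition complex, fell by 1.37 in the PURPL guide lines and by 1.34 in the NTC lines, CDC6 by 1.42 and 1.26, and the log2 fold changes of PCNA, which rose, were 0.35 and 0.42. Of 25 G2/M genes, 21 fell and 0 rose in the PURPL guide lines, and 12 fell and 0 rose in the NTC lines, and without the divergent library these became 25 and 23. The mitotic kinase gene AURKA fell by 0.90 in the PURPL guide lines and by 0.68 in the NTC lines. FOXM1, partner of the activating core, was at -0.17 and -0.28 and did not pass with all libraries, and it passed as lower in both without the divergent library (edgeR adjusted p = 0.00289 and 0.0142). The G1/S list without the divergent library had 22 lower and 2 higher in the PURPL guide lines and 21 lower and 1 higher in the NTC lines. The median log2 fold change with all libraries was -0.64 and -0.65 for the G1/S list and -0.57 and -0.43 for the G2/M list, beside 0.05 and -0.02 for all genes, in the PURPL guide and NTC lines.

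Levels were also compared between genes over the 12 combinations of line and treatment. Without the divergent library, mean log2(CPM + 0.5) of RBL1 had a Pearson r of 0.996 with LIN54, 0.992 with LIN9, 0.963 with LIN52 and 0.954 with MYB over the 12 group means. RBL1 and RBL2 had an r of 0.0649, and RB1 and RBL2 0.905. All points share the 2 treatments and the same libraries, and r is given as a description. Among 11994 genes with a mean of at least 1 CPM, the closest to MYB were KIF20A (r = 0.992), E2F5 (0.991) and FKBP5 (0.991). SUZ12, KIF11 and HAUS6 were closest to RBL1 (0.998 each), and EIF4G1 (0.990), SAP30BP (0.990) and COLGALT1 (0.982) to MYBL2. RAD50 (0.980), IQGAP1 (0.967) and TMF1 (0.964) were closest to RBL2.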

How the data were processed

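Stranded mRNA libraries from 24 samples were read as estimated counts per gene, which the authors deposited as RSEM expected counts. The submitters' processing notes name cutadapt, STAR, RSEM, DESeq2 and hg38. No version, annotation release or strand setting is given there or in the labels. Between 5.6% and 7.16% of the values in a library were not whole (tolerance 0.001) and were rounded. Of 58870 rows, 45 for the Y copies of pseudoautosomal genes were added to their X copies. Coordinates, exon lengths and GC content came from GENCODE 29, in which 58552 of 58825 identifiers were found without regard to version.

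Responses to Nutlin-3a were fitted with edgeR 4.0.16 (R 4.3.3, limma 3.58.1), a robust quasi-likelihood test with TMM scaling on 12 means of line and treatment over all 24 libraries, after filterByExpr with a minimum count of 10. Guide comparisons used sums of the 2 harvests of each line, so that the line was the replicate. P-values were Benjamini-Hochberg adjusted over all genes tested, with a threshold of 0.05, except those of the sign-flip test, which were left unadjusted. Alternatives were DESeq2 1.42.0, RLE size factors, other filters, a replicate block, left-out libraries and lines, and removal of each library's trend on GC content, known for 99.7% of genes tested. Fits were tested on simulated data. Named genes were the 10 members, up to 4 per list and direction with the smallest p in the NTC lines, RBBP4, DYRK1A, E2F4, FOXM1, MYBBP1A, PURPL and CDKN1A, and the 3 genes most like MYB, MYBL2, RBL1 and RBL2; the text gives examples of these. The members and lists were chosen with earlier results of these data known. PacBio and HepG2 data were not analysed here.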

Additional observations from a re-analysis of the deposited data

Results flagged for a closer look

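Of 40 sets of values for 1 gene in 1 group of 4 or 8 libraries, 8 had a lowest or highest library far from the rest, where chance gives about 1 in 20. All 8 were the same library, the first harvest of sg2 with Nutlin-3a, within the 8 Nutlin-3a libraries of the PURPL guide lines. It was low for RB1 (83.1 CPM, against 191 to 254 in the other 7), RBL1 (17.0, against 32.6 to 40.8), LIN9 (13.6, against 30.3 to 37.8) and LIN52 (8.22, against 12.1 to 15.2). It was also low for LIN54 (16.2 CPM, against 29.5 to 36.2) and MYBL1 (55.0, against 121 to 162). It was high for LIN37 (12.5 CPM, against 1.59 to 3.43) and MYBL2 (124 CPM, against 21.6 to 39.6). MYB and RBL2 were not among them. The 2 genes that were high have transcripts of 59.1% and 60.5% GC and the 6 that were low lie between 37.3% and 43.6%, in a library with a GC slope of 1.21. The part of GC content in these values was not tested gene by gene.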

How the results depend on the processing

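MYB kept its fall in all 57 fits of both Nutlin-3a comparisons, and RBL1, LIN9, LIN52 and LIN54 kept theirs in all 57 fits in the PURPL guide lines. In the NTC lines those 4 were called in 28 or 29 of 57 fits. They were called in all 23 fits that left out a further library beside the divergent one. Of the 24 fits that left out 1 library, 2 or 3 called them. The 57 hold the fit without the divergent library a further time among those 24. Of the members' log2 fold changes over all alternatives, 1345 kept direction and side of the threshold, 152 came to pass it, 32 no longer passed and 70 turned direction. The cause was not tested.

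In the NTC lines the members called lower were 6 when the divergent library was left out, when each library's GC trend was removed as well, and with only the lines compared in the fit. Genes called lower were then 2655, 2645 and 1869, and genes called higher 1482, 2442 and 1782. Line sums gave 294 lower and 381 higher, and no filter gave 321 lower. In the PURPL guide lines 0 members were higher with no filter, without the divergent library, with only the lines compared and on line sums. With the GC trend removed as well as the divergent library left out, 1 was higher, LIN37. Genes lower were 1770 with no filter, and genes higher 1414 with only the lines compared and 1562 on line sums. MYBL2 turned to -0.37 without the divergent library and to -0.48 with the GC trend removed, where RB1 was 0.07 and RBL2 0.04. Line by line, 29, 36 and 23 pairs were lower when the divergent library was dropped, after GC trend removal and with only the lines compared, and 0 were higher without the divergent library, with no filter and with only the lines compared. Line sums leave no residual degrees of freedom line by line, and that fit was not run.

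Between guide and NTC lines in DMSO, 1 gene was higher with the replicate block, single harvests, no filter or the GC trend removed, and DESeq2 called 8 higher and 3 lower. With the GC trend removed LIN9 was at -0.03, LIN37 at 0.03, LIN52 at -0.01 and MYBL2 at 0.07. With Nutlin-3a, the replicate block and single harvests each called 1 higher and 1 lower, DESeq2 2 and 2, and 1 was lower without the divergent library and 2 with the GC trend removed, where RB1 and RBL2 were at 0.03. For the difference of responses DESeq2 called 2 higher and the GC fit 1, and MYBL2 was at -0.04 in the GC fit.

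Leaving out 1 library gave 1 to 6 members lower in the NTC lines, with 357 to 1482 genes higher and 432 to 2655 lower, and LIN37 from -0.05 to 0.13 and MYBL1 from -0.02 to 0.10. The members lower there were 6 also without harvest 3 of sg2 with Nutlin-3a, and 2 without harvest 3 of sg5 with Nutlin-3a. Genes higher there fell short of the full count by over 1.5 times without either Nutlin-3a harvest of NTC1, harvest 3 of NTC1 in DMSO, or any of the 4 NTC2 libraries. In the PURPL guide lines it gave 5 to 8 members lower, 0 to 1 higher, 1567 to 5695 genes higher and 2238 to 5525 lower, with MYBL2 from -0.37 to 0.17. The 8 members and 5695 genes came without sg2 with Nutlin-3a, harvest 3, which leaves the divergent library alone in its group, and RB1 was at -0.43 and RBL2 at -0.23 there. LIN37 lost its call there in 10 of 24 such fits. Line by line, 6 to 33 pairs were lower and 0 to 2 higher. Leaving out a line or harvest gave 0 to 6 members higher and 0 to 2 lower in DMSO, with 0 to 3075 genes higher and 0 to 3249 lower. There RB1 ran from -0.10 to 0.45, RBL1 from -0.09 to 0.36, LIN9 from -0.17 to 0.22, LIN37 from -0.49 to 0.32, LIN52 from -0.06 to 0.13, LIN54 from -0.11 to 0.32, MYBL1 from -0.07 to 0.37 and MYBL2 from -0.43 to 0.27. With Nutlin-3a 0 to 1 genes were lower, and for the difference of responses 0 to 1 higher. Leaving out a further library beside the divergent one gave 5 to 6 members lower in the NTC lines (1102 to 2148 genes higher, 1987 to 3074 lower) and 5 to 7 in the PURPL guide lines (2166 to 3211 higher, 3167 to 3995 lower). MYBL1 then ran from -0.02 to 0.12 and LIN37 up to 0.14 in the NTC lines, and RB1 from -0.08 to 0.03, RBL2 from -0.10 to 0.07 and MYBL2 from -0.44 to -0.28 in the PURPL guide lines.

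Deviations of same-numbered harvests correlated over 0.1 in 32 of 66 pairs of groups (r from -0.732 to 0.73, median 0.0851, or 0.125 without sg2 with Nutlin-3a; at most 0.579 between the treatments of 1 line). Not every pair passed 0.1, so the numbers were not taken to pair the libraries. With the replicate block 1 member was lower in the NTC lines, with 732 genes higher and 687 lower, and 5 members were lower and 1 higher in the PURPL guide lines, with 2698 genes higher and 2722 lower. Depth limits MYB and LIN37 most, MYB with 20 to 43 counts per Nutlin-3a library and LIN37 with 89 to 247 per library other than the divergent one.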
